A study of Mus musculus with 24 samples.

Results

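Microglia from neonatal MRL/lpr mice that had been exposed to interferon gamma (IFNg) were compared directly with microglia exposed to interferon alpha (IFNa). The members were the libraries whose labels name either agent alone: 3 with IFNg and 3 with IFNa, which is 6 of the 24 libraries in the series. The other libraries are 3 of unstimulated neonatal cells, 9 of neonatal cells given other cytokines, and 6 of microglia from 16-week-old mice. The study as titled asked about IKBKE, a kinase related to TBK1, in lupus-prone mice, and RNA was measured by sequencing of directional libraries.

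All neonatal groups were MRL/lpr, a lupus-prone strain in which the lpr allele is a mutation of the death receptor gene Fas, so the unstimulated controls carry it too. The parent strain MRL/MpJ, which lacks the allele, is present only among the adults. Cells came from enzyme-digested brains by magnetic selection for CD11b, a surface protein that microglia share with other myeloid cells. The neonatal cells were then held for 48 h in medium with 10% serum and exposed for 6 h. Doses are not in the labels, so a difference between IFNg and IFNa compares these exposures and not equal doses. The labels number the replicates 1, 2 and 3 without saying whether a number stands for a culture, a litter or a day, so p-values measure the spread between these samples, which may be technical. These are bulk libraries, in which fewer cells of a type and less RNA per cell cannot be told apart.

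IFNa is a type I interferon and binds the receptor IFNAR1/IFNAR2, which works through the kinases JAK1 and TYK2 and assembles a complex of STAT factors with IRF9 that reads the interferon-stimulated response element (ISRE). IFNg, the type II interferon, binds IFNGR1/IFNGR2 and works through JAK1 and JAK2 to form STAT dimers that read the gamma-activated site (GAS). The transcription factors IRF1 and IRF8 and the MHC class II regulator CIITA are textbook targets of IFNg, whereas the IFIT, Mx, OAS and viperin genes are textbook antiviral targets of type I interferon.

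The 6 libraries held 14487325 to 16287192 counted reads each. Levels are given as CPM, read counts relative to the library total scaled by the TMM method, and differences as log2 of IFNg over IFNa with the standard error, positive where IFNg was higher. A gene was called where the adjusted p (edgeR quasi-likelihood test with the replicate number as a block, 18 neonatal libraries) was under 0.05. Replicate 3 stood apart in interferon genes before any exposure: Irf7, a factor that amplifies type I interferon production, was at 2321 CPM in unstimulated replicate 3 against 636 and 809 in the other two, and viperin (Rsad2) at 265 against 45.8 and 53.2. IFNa replicate 3 was the lowest of its group for Cxcl9, at 7.12 CPM against 39.1 and 60.8. Calls that end without the replicate 3 libraries are named with their values. Microglial genes were present, with 10 markers that summed to 5703 to 7020 CPM with IFNg and 5219 to 5895 with IFNa, but the homeostatic marker Tmem119 was near the bottom, at a mean of 1.59 and 2.15 CPM. Fas itself was at 1.63, 2.06 and 2.00 CPM with IFNg and 0.533, 0 and 0.22 with IFNa. It was called higher with IFNg (3.19 ± 0.748, adjusted p = 0.00673, edgeR), but not without the replicate block (adjusted p = 0.126) or without replicate 3 of every neonatal group (adjusted p = 0.0795).

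Of 14626 genes tested, 2058 (14.1%) were called between the interferons. IFNg gave the higher level for 1106 genes (7.56%) and IFNa for 952 (6.51%). The median size of a call was 0.63 on the IFNg side and -0.75 on the IFNa side, and calls of at least 2-fold numbered 249 and 310. Without the replicate block 756 genes were called, 411 higher with IFNg and 345 higher with IFNa, and leaving out 1 IFNg or IFNa library gave 1223 to 1821 calls, the fewest without IFNg replicate 2. The balance of the directions was not stable: more genes were higher with IFNa than with IFNg under RLE size factors (1072 against 958), with DESeq2 (1295 against 1168), without a filter on low counts (1093 against 1047), in a fit of all 24 libraries (1133 against 915), without the mixture library numbered 2 (1142 against 951), and without IFNg replicate 1 (707 against 705), IFNg replicate 3 (802 against 714) or IFNa replicate 3 (928 against 893). The shares of 7.56% and 6.51% are the background for the counts of list members that follow. The 3 libraries of the groups did not overlap for 3288 genes (22.5%), which include 906 of the genes called higher with IFNg and 763 of those called higher with IFNa.

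**Figure D1:**
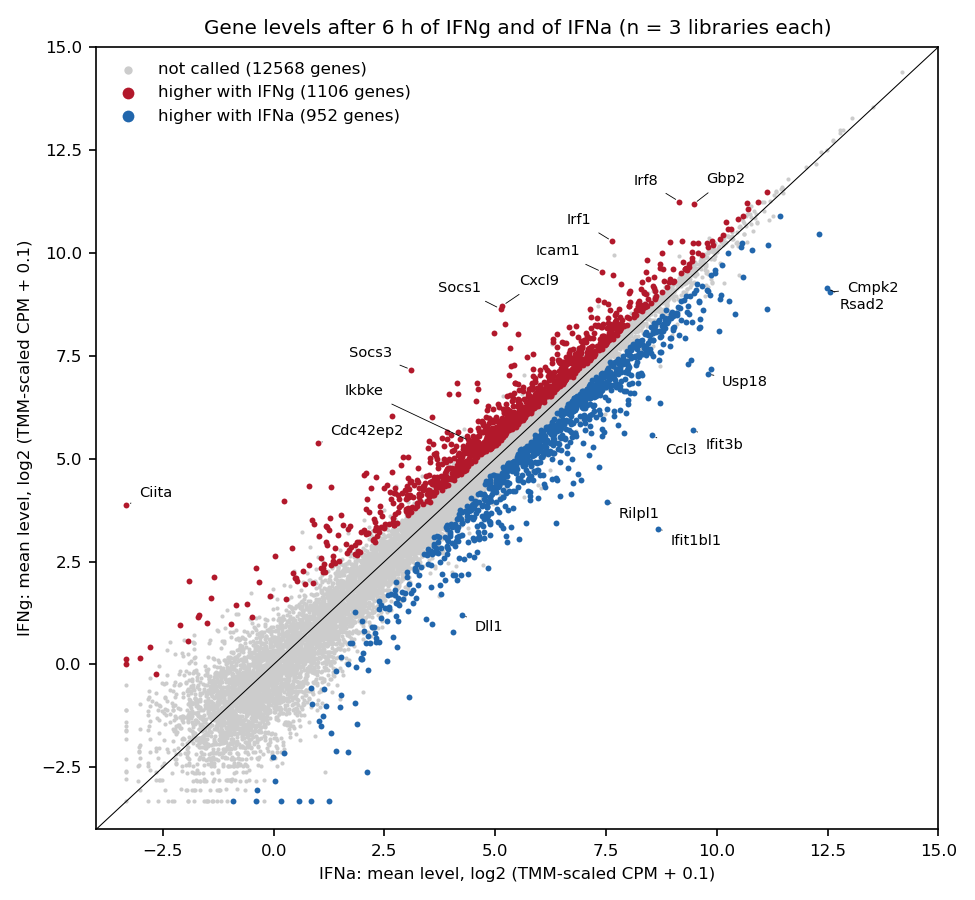
Mean level of each tested gene after IFNa (x axis) and IFNg (y axis), log2 of TMM-scaled CPM plus 0.1, 3 libraries each; red and blue points are genes called higher with IFNg (1106) and with IFNa (952), grey points are not called, and the line marks equal levels. Cdc42ep2, Socs3 and Ciita lie farthest above the line among labelled genes, and Ifit1bl1, Ifit3b and Rilpl1 farthest below it.

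Both comparisons with unstimulated cells use the same 3 control libraries, so their values are given side by side and not as independent results. IFNg raised 2156 genes (14.7%) and lowered 1312 (8.97%), and IFNa raised 2093 (14.31%) and lowered 1619 (11.1%). Among the 1106 genes higher with IFNg, 412 were raised by IFNg and not called with IFNa, 184 were raised by both, 37 were raised by IFNg and lowered by IFNa, and 256 were lowered by IFNa without a call for IFNg. Among the 952 genes higher with IFNa, 373 were raised by IFNa and not called with IFNg, 306 were raised by both, 17 were raised by IFNa and lowered by IFNg, and 130 were lowered by IFNg without a call for IFNa. Of the remaining genes, 186 on the IFNg side and 91 on the IFNa side were called in neither comparison with unstimulated cells. The other 31 and 35 were lowered by both interferons. A further 865 genes rose with both interferons and were not called between them.

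Among the largest differences was that of Cdc42ep2, which encodes an effector of the GTPase CDC42. It was at 38.2, 56.1 and 30.3 CPM with IFNg and at 0.474, 2.73 and 2.50 with IFNa, with unstimulated libraries at 0.452 to 1.24. Its difference was 4.53 ± 0.417 (adjusted p = 1.36e-05, edgeR). Ralgds, an exchange factor for Ral GTPases, was at 285, 358 and 158 CPM with IFNg and at 36.1, 42.3 and 15.26 with IFNa (3.11 ± 0.386). Neither gene was called for IFNa against unstimulated cells. Both were picked by a rule that requires groups without overlap, so the separation of their libraries is not a result. Slamf8, a SLAM family receptor of macrophages, rose with both but was higher with IFNg (3.05 ± 0.487), at 293, 410 and 217 CPM against 39.5, 52.8 and 19.4. On the other side, Rilpl1, a Rab effector gene, was at 16.6, 16.6 and 13.1 CPM with IFNg and 182, 230 and 136 with IFNa, a difference of -3.55 ± 0.445. The Notch ligand gene Dll1 was at 2.17, 2.13 and 2.33 CPM with IFNg and 20.2, 25.4 and 11.15 with IFNa (-3.04 ± 0.306, adjusted p = 4.01e-06, edgeR). Rilpl1 and Dll1 rose with IFNa and were not called for IFNg against unstimulated cells. Igsf11, an adhesion molecule gene, was higher with IFNg (2.76 ± 0.591) but not without the replicate block (adjusted p = 0.203).

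**Figure D2:**
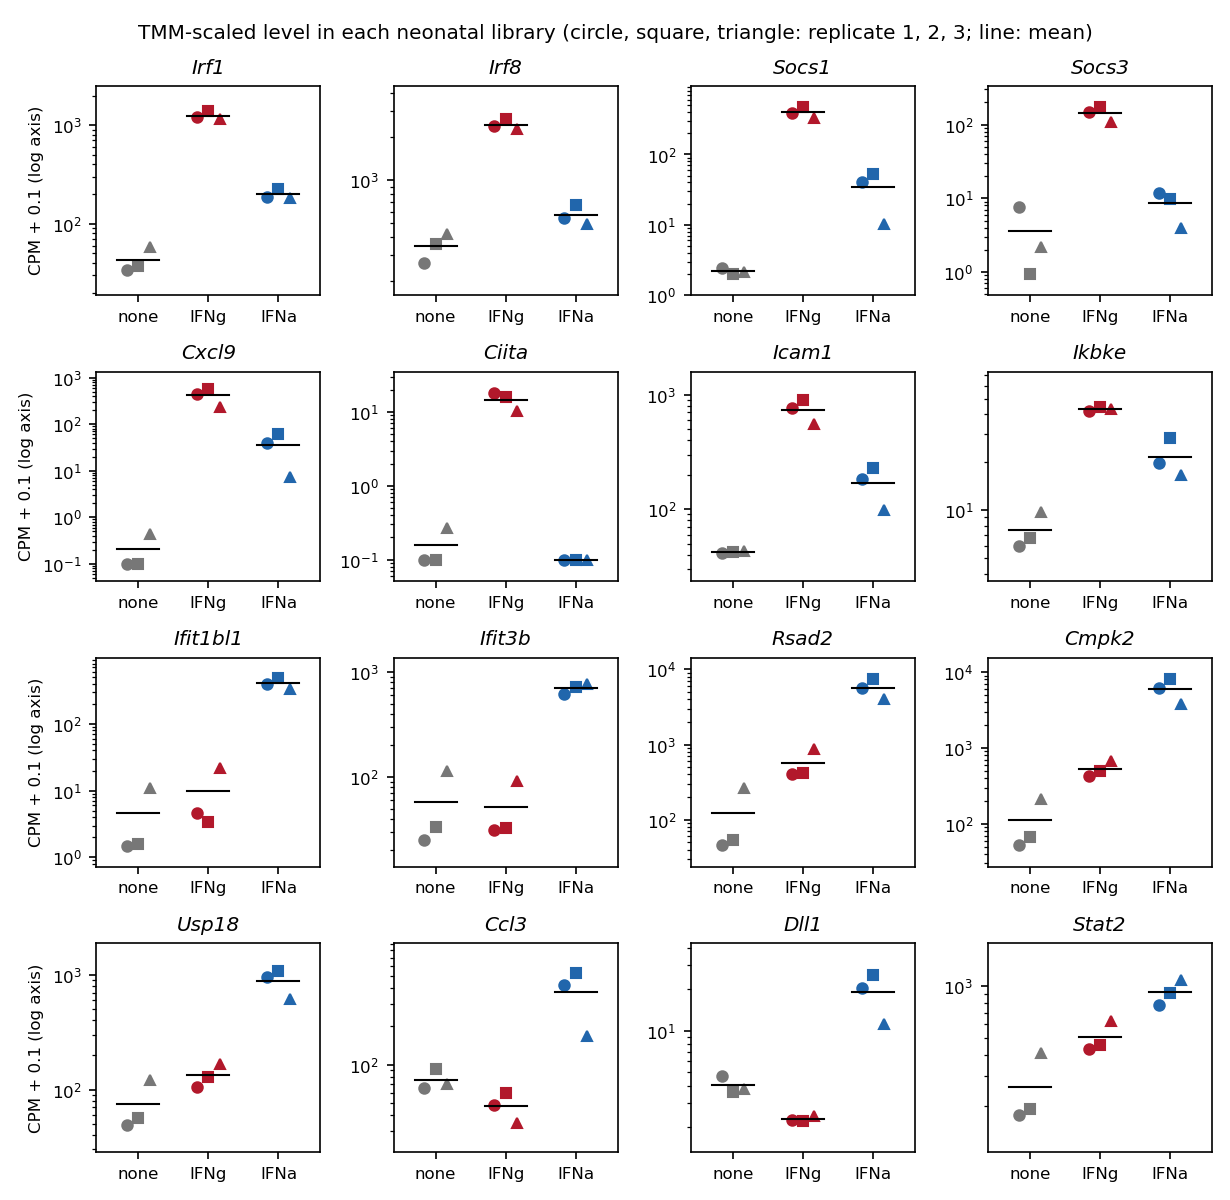
Level of 16 genes in each unstimulated (grey), IFNg (red) and IFNa (blue) library, TMM-scaled CPM plus 0.1 on a log axis; circles, squares and triangles are replicates 1, 2 and 3 and the line is the mean of 3. Every IFNg library lies above every IFNa library for Irf1, Irf8, Socs1, Socs3, Cxcl9, Ciita, Icam1 and Ikbke, and below for Ifit1bl1, Ifit3b, Rsad2, Cmpk2, Usp18, Ccl3, Dll1 and Stat2, while the triangles of unstimulated cells are high for Ifit1bl1, Ifit3b, Rsad2 and Cmpk2.

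Of 12 receptors and proximal kinases or phosphatases, 2 were higher with IFNg and 2 with IFNa. Ifngr1, the ligand-binding chain for IFNg, fell with both agents, by 1.49 with IFNg and 1.75 with IFNa on the log2 scale, and its difference between them was 0.25 (95% interval -0.05 to 0.56). Ifnar1 fell with both as well, by 0.61 and 0.84. The other receptor chains Ifngr2 (0.05) and Ifnar2 (0.28), the shared kinase Jak1 (0.16), the phosphatases Ptpn2 (0.27) and Ptpn11 (0.02), and the STAT inhibitor Pias1 (0.18) were not called between the agents. The kinase Tyk2 rose with both and was higher with IFNa, at 157, 189 and 256 CPM against 92.8, 113 and 128 with IFNg (-0.84 ± 0.0891, adjusted p = 6.38e-06, edgeR). Jak2, the kinase of the IFNg receptor, was also higher with IFNa (-0.55 ± 0.138), at 132, 153 and 113 CPM against 83.3, 94.0 and 95.2. Of 4 phosphatases in the list 2 were higher with IFNg: Ptpn1 was at 283, 289 and 324 CPM with IFNg and 134, 154 and 181 with IFNa (0.94 ± 0.114), and Ptpn6, which encodes SHP-1, differed by 0.68 ± 0.118. Without the replicate block the adjusted p was 0.0512 for Tyk2 and 0.0748 for Jak2. Jak2 was also not called without IFNa replicate 1 (adjusted p = 0.0716), IFNg replicate 2 (0.0582) or IFNa replicate 2 (0.0717).

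Of 6 STAT genes tested, 3 were higher with IFNg and 1 with IFNa. Stat2, which takes part in the type I complex, was higher with IFNa, at 778, 911 and 1084 CPM against 431, 457 and 625 (-0.89 ± 0.182, adjusted p = 0.00421, edgeR; adjusted p = 0.282 without the replicate block). Stat3, the main carrier of IL-6 family signals, was at 440, 440 and 380 CPM with IFNg and 247, 295 and 237 with IFNa (0.69 ± 0.13). Stat5a rose with IFNg, to 31.5, 38.6 and 22.9 CPM, and with IFNa stood at 13.6, 17.9 and 15.7, close to the unstimulated 14.9 to 17.4 (0.96 ± 0.147). Stat5b was higher with IFNg by 0.64 ± 0.155, a call that ended without IFNg replicate 1 (adjusted p = 0.0797) or IFNa replicate 1 (0.0607). Stat6 was not called (0.10 ± 0.128). Stat4 had too few reads to be tested.

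Of 9 interferon regulatory factors, Irf1 and Irf8 were higher with IFNg and Irf9 with IFNa. Irf1, which drives many secondary targets of IFNg, rose from 34.0, 37.3 and 57.4 CPM to 1199, 1385 and 1155 with IFNg and to 186, 227 and 184 with IFNa. The difference was 2.65 ± 0.381 (adjusted p = 0.000845, edgeR). Irf8, a myeloid lineage factor, was at 2353, 2666 and 2257 CPM with IFNg and at 543, 668 and 497 with IFNa, against 268 to 423 in unstimulated libraries (2.09 ± 0.403). Irf8 rose with IFNg by 2.81 and was not called for IFNa against unstimulated cells (0.72). Without replicate 3 of every neonatal group the Irf8 difference was 2.06 with an adjusted p of 0.105. Irf9 was at 77.5, 66.1 and 80.7 CPM with IFNg and 110, 122 and 103 with IFNa (-0.58 ± 0.137), a call that ended without the replicate block (adjusted p = 0.0637), without IFNa replicate 1 (0.0555) and without IFNg replicate 2 (0.0747). Irf7 was at 1299, 1333 and 2682 CPM with IFNg and 1952, 2206 and 2772 with IFNa. Its groups overlapped through replicate 3 and it was not called (-0.49 ± 0.246). Without IFNa replicate 3 the Irf7 difference was -0.75 (adjusted p = 0.0288), and without replicate 3 of every neonatal group it was -0.65 (adjusted p = 0.00202). Irf5 rose with both, with a difference of 0.01 and an interval of -0.19 to 0.22. Irf2 also rose with both and was not called between them (-0.07), nor were Irf3 (0.11) or Irf4 (-0.60).

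The feedback inhibitors of cytokine signalling divided, 3 higher with IFNg and 3 with IFNa of 9. Socs1, which blocks JAK activity, was at 389, 477 and 329 CPM with IFNg and 41.2, 52.8 and 10.1 with IFNa, from 1.87 to 2.32 CPM unstimulated (3.54 ± 0.657, adjusted p = 0.00441, edgeR). Socs3, the inhibitor of gp130 receptor signals, was at 149, 172 and 108 CPM with IFNg and 11.8, 9.85 and 3.82 with IFNa (4.08 ± 0.526, adjusted p = 0.000428). Socs3 rose with IFNg and was not called for IFNa against unstimulated cells, where replicate 1 alone held 7.49 CPM against 0.845 and 2.08. Usp18, the ISG15 protease that also restrains the type I receptor, was at 104, 128 and 167 CPM with IFNg and 964, 1078 and 616 with IFNa (-2.87 ± 0.496). Socs7 was higher with IFNa (-1.07 ± 0.177), and Socs6 fell with both but less with IFNa (-0.53 ± 0.105). Socs5 was called 0.53 ± 0.147 higher with IFNg, and this call ended without the replicate block (adjusted p = 0.223) and on leaving out any 1 of the 6 libraries (adjusted p from 0.0531 to 0.0943). Socs1 was not called in a fit of the 6 libraries alone (adjusted p = 0.0688) or without replicate 3 of every neonatal group (3.22, adjusted p = 0.0592), and Usp18 was at an adjusted p of 0.05 with the 6 libraries alone. Cish, another SOCS family inhibitor, was not called here (2.05 ± 0.758, adjusted p = 0.0843) but was with DESeq2 (adjusted p = 0.0339), with no filter on low counts (0.0325) and with the 6 libraries alone (0.0182). Socs2 (-0.42) and Socs4 (0.02) were not called.

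**Figure D3:**
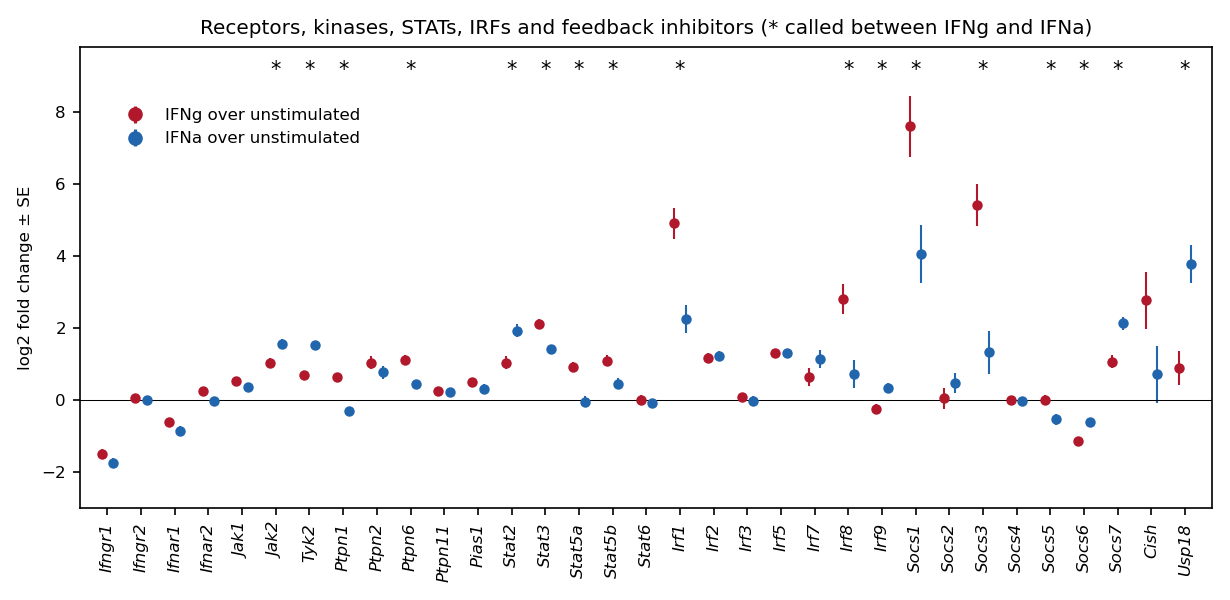
Log2 fold change over unstimulated cells, with the standard error, for IFNg (red) and IFNa (blue) in receptor, kinase, phosphatase, STAT, IRF and feedback genes; both share the 3 control libraries, and asterisks mark genes called between IFNg and IFNa. Irf1, Irf8, Socs1 and Socs3 show the widest gap in favour of IFNg and Usp18 the widest in favour of IFNa, while Irf2 and Irf5 lie together.

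Antiviral families stood on the IFNa side. All 6 IFIT genes, whose proteins bind foreign RNA, were higher with IFNa, with a median difference of -2.74 where the median of all genes was 0.00. Ifit1bl1 was at 4.52, 3.30 and 21.4 CPM with IFNg and 398, 491 and 332 with IFNa (-6.05 ± 0.952, adjusted p = 0.00167, edgeR), and Ifit3b was at 31.0, 32.9 and 91.5 against 613, 727 and 775 (-4.05 ± 0.548). Neither was called for IFNg against unstimulated cells, and replicate 3 was the highest of 3 in both of those groups, at 10.9 CPM for Ifit1bl1 and 114 for Ifit3b without exposure. Ifit1 differed by -2.84 ± 0.5. Several IFIT genes have near-identical neighbours (Ifit1bl1 and Ifit1bl2, Ifit3 and Ifit3b), so the split of reads within these pairs is uncertain. In a fit of the 6 libraries alone the adjusted p was 0.0982 for Ifit1bl1 and 0.0712 for Ifit1, and 4 IFIT genes were called higher with IFNa. The count was 5 without the replicate block. It was also 5 on leaving out any 1 IFNg library, or IFNa replicate 1 or 2.

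Of 28 Mx, viperin and other antiviral effectors, 15 were higher with IFNa and 1 with IFNg. Rsad2, which encodes viperin, was at 404, 424 and 863 CPM with IFNg and 5654, 7433 and 4082 with IFNa (-3.65 ± 0.706). Its neighbour Cmpk2, a mitochondrial nucleotide kinase gene, was at 429, 496 and 664 CPM with IFNg and 6238, 8062 and 3813 with IFNa (-3.70 ± 0.71, adjusted p = 0.00554, edgeR). Both rose with each interferon. Mx2 was at 19.3, 15.5 and 31.8 CPM with IFNg and 133, 149 and 85.8 with IFNa (-2.51 ± 0.322). The exception was Ifitm2, which encodes a membrane protein that limits viral entry and was 0.62 ± 0.125 higher with IFNg. Rsad2 (adjusted p = 0.0946), Cmpk2 (0.0629) and Mx2 (0.0907) were not called with the 6 libraries alone. The count of effectors higher with IFNa was 5 without the replicate block and 20 without replicate 3 of every neonatal group, and it was 7 without IFNa replicate 1 or 2, 8 without IFNg replicate 2 and 9 without IFNg replicate 3.

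Other interferon-stimulated families showed the same direction among their calls. Of 8 oligoadenylate synthetases, 6 were higher with IFNa and 0 with IFNg, and all 8 rose with IFNa against unstimulated cells. Oas1b was at 7.95, 9.68 and 9.76 CPM with IFNg and 23.9, 27.7 and 21.7 with IFNa (-1.44 ± 0.248, adjusted p = 0.00058, edgeR). Of 6 ISG15 conjugation genes 5 were higher with IFNa, of 14 PARP and Schlafen genes 6, and of 11 TRIM genes 4, and none of these families had a member higher with IFNg. Slfn9 differed by -1.21 ± 0.192 and Trim26 by -1.10 ± 0.153. Isg15, the ubiquitin-like modifier, was at 374, 404 and 629 CPM with IFNg and 1043, 1138 and 1068 with IFNa (-1.30 ± 0.317), a call that ended without the replicate block (adjusted p = 0.206) and without each of IFNg replicate 1, 2 or 3 and IFNa replicate 1 or 2 (adjusted p from 0.0506 to 0.0906). Without replicate 3 of every neonatal group the counts higher with IFNa were 8 for the synthetases, 6 for ISG15 conjugation, 14 for PARP and Schlafen and 10 for TRIM, whereas without the replicate block they were 1, 1, 2 and 1. Without IFNa replicate 3 alone they were 13 for PARP and Schlafen and 10 for TRIM, and without IFNa replicate 1 the count for ISG15 conjugation was 3.

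Sensors of foreign nucleic acid followed the antiviral genes, with 11 of 27 higher with IFNa and 1 with IFNg. Ddx58, which encodes the RNA sensor RIG-I, was at 154, 159 and 190 CPM with IFNg and 631, 778 and 633 with IFNa (-2.06 ± 0.371). The double-stranded RNA receptor gene Tlr3 was at 79.5, 89.97 and 97.9 CPM against 357, 398 and 293 (-2.02 ± 0.387, adjusted p = 0.00485, edgeR). Ifi213, of the AIM2-like cluster, differed by -2.12 ± 0.471 but not past the threshold without the replicate block (adjusted p = 0.0734) or without IFNa replicate 2 (0.0541). Tmem173, which encodes the cyclic dinucleotide adaptor STING, was the 1 sensor on the IFNg side, at 217, 265 and 239 CPM with IFNg and 74.6, 108 and 52.7 with IFNa, against 24.8 to 43.6 unstimulated (1.59 ± 0.312, adjusted p = 0.00475). The number higher with IFNa was 5 without the replicate block and 19 without replicate 3 of every neonatal group.

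Downstream of these sensors, the kinase gene Ikbke (ENSMUSG00000042349, chromosome 1: 131254343 to 131279606, minus strand, GRCm38) was higher with IFNg. Its levels were 5.87, 6.64 and 9.67 CPM in unstimulated libraries, 41.7, 44.4 and 42.8 with IFNg, and 19.7, 28.1 and 16.6 with IFNa. Both interferons raised it, and no IFNa library reached an IFNg library. The difference was 1.00 ± 0.184 (adjusted p = 0.0014, edgeR), and it lay between 0.758 and 1.23 and remained past the threshold in every alternative run. Of 20 genes of the TBK1 and IKK-epsilon axis, 4 were higher with IFNg and 2 with IFNa. The adaptor Traf3 was higher with IFNg, at 44.4, 46.8 and 50.03 CPM against 20.0, 24.7 and 28.5 (0.95 ± 0.193). Of the scaffolds that bind TBK1, Tbkbp1 was higher with IFNg (0.71 ± 0.161) and Azi2 with IFNa (-0.84 ± 0.163), and the TLR3 adaptor Ticam1 was higher with IFNa (-0.48 ± 0.122). Without the replicate block Tbkbp1 (adjusted p = 0.105), Azi2 (0.0556) and Ticam1 (0.19) were not called, and Ticam1 was not called without IFNa replicate 1 (0.0502) or IFNg replicate 2 (0.0512).

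The guanylate-binding proteins and immunity-related GTPases, which attack vacuoles that hold pathogens, were raised by both agents. All 11 guanylate-binding genes rose with each interferon, with a median change of 7.25 for IFNg and 5.33 for IFNa, and 3 of the 11 were called higher with IFNg and 0 higher with IFNa. Gbp2b was at 64.5, 80.6 and 47.6 CPM with IFNg and 14.2, 13.2 and 7.78 with IFNa (2.45 ± 0.429, adjusted p = 0.00232, edgeR). Gbp2 was at 2335, 2734 and 1930 CPM with IFNg and 767, 881 and 495 with IFNa (1.69 ± 0.419). Gbp2 was not called without IFNg replicate 1 (adjusted p = 0.0837), IFNa replicate 1 (0.0537), IFNg replicate 2 (0.104) or IFNa replicate 3 (1.35, 0.0569). The number of these genes called higher with IFNg ranged from 1 to 8 over the alternatives, and was 1 without IFNa replicate 1 or 3 or IFNg replicate 2 and 5 without IFNa replicate 2. All 13 immunity-related GTPases tested rose with each interferon, and 1 was called between them, F830016B08Rik, at 17.05, 22.9 and 19.8 CPM against 2.37, 3.39 and 1.32 (3.02 ± 0.588). Members of both families include close copies, such as Gbp6 and Gbp10 or Tgtp1 and Tgtp2, whose reads may be shared.

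Of 21 MHC class I and peptide loading genes, 3 were higher with IFNg and 1 with IFNa, with a median difference of 0.01, and 13 rose with IFNg and 12 with IFNa. The 3 became 1 without IFNg replicate 1 or IFNa replicate 1 or 3. Without the replicate block 0 were called on either side. The transporter gene Tap1 rose by 3.03 with each, and the class I regulator Nlrc5 by 4.31 with IFNg and 4.34 with IFNa. Their differences, singled out after the values were seen, were 0.01 (interval -0.67 to 0.69) and -0.03 (-0.68 to 0.62), which leave room for a difference in either direction. Of 10 immunoproteasome and activator genes 0 were called between the agents with edgeR, 2 had an unadjusted p under 0.05, and 2 were called higher with IFNa with DESeq2. Against unstimulated cells 6 rose with each. H2-T22, a non-classical class I gene, was higher with IFNa (-1.13 ± 0.212), though not without the replicate block (adjusted p = 0.423).

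MHC class II genes had 4 of 18 higher with IFNg, or 2 without IFNg replicate 2, and 0 with IFNa. Ciita, the master regulator of class II transcription, had 682 reads over the 3 IFNg libraries and 0 over the 3 IFNa libraries, which makes it at least 222-fold higher with IFNg when the IFNa group is set at a floor of 3 reads in all. By library it stood at 17.9, 15.6 and 10.21 CPM with IFNg, and only unstimulated replicate 3 (0.169 CPM) held reads among the controls. Cd74, the invariant chain, was at 49.1, 66.3 and 33.5 CPM with IFNg and 24.3, 28.9 and 25.0 with IFNa, where the unstimulated libraries held 21.6 to 30.0 (0.91 ± 0.16, adjusted p = 0.00071, edgeR). The chain H2-Aa was at only 2.77, 2.95 and 0.905 CPM with IFNg and 0.237, 0.399 and 0 with IFNa (3.35 ± 0.858). H2-Aa was not called without the replicate block (adjusted p = 0.0646), without IFNa replicate 1 (0.072), without IFNg replicate 2 (0.0816) or without replicate 3 of every neonatal group (0.0738).

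Chemokine genes went both ways. Cxcl9, a ligand of the chemokine receptor CXCR3 on T cells and a classic IFNg target, was at 451, 575 and 233 CPM with IFNg and 39.1, 60.8 and 7.12 with IFNa, and at 0, 0 and 0.337 in unstimulated libraries (3.65 ± 0.698, adjusted p = 0.00535, edgeR). Without replicate 3 of every neonatal group it differed by 3.37 (adjusted p = 0.0693). Cxcl10, its sister ligand, rose by 8.78 with IFNg and 8.55 with IFNa and was not called between them, with a difference of 0.23 and a wide interval of -1.25 to 1.70; it was picked after its values were seen. Cxcl16 was raised by IFNg alone among the calls against unstimulated cells, at 394, 484 and 418 CPM against 159, 187 and 215 with IFNa (1.22 ± 0.092, adjusted p = 2.54e-07). Among CC chemokines, which attract monocytes and T cells, calls stood on the IFNa side: Ccl3 was at 47.8, 59.1 and 34.7 CPM with IFNg and 423, 528 and 168 with IFNa (-2.91 ± 0.245, adjusted p = 6.38e-06), and Ccl4 was at 76.6, 104 and 63.2 against 473, 570 and 215 (-2.32 ± 0.254). Ccl3 fell with IFNg and rose with IFNa, and Ccl4 rose with IFNa and was not called with IFNg. In all, 2 of 12 CXC genes were higher with IFNg and 3 of 12 CC genes with IFNa.

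Among 25 cytokine genes, 2 were higher with each agent. The IFNa side had 0 without IFNg replicate 1 or 2 or IFNa replicate 2, 1 without IFNa replicate 1 or IFNg replicate 3, and 6 without IFNa replicate 3, and the IFNg side had 1 without replicate 1 of either group. Tnf was at 117, 143 and 44.8 CPM with IFNg and 60.0, 63.1 and 16.0 with IFNa, against 4.84 to 6.395 unstimulated. Replicate 3 was lowest in both groups, the groups overlapped, and the difference of 1.17 ± 0.247 was called with the replicate block (adjusted p = 0.00562, edgeR) but not without it (0.342). Il15, a growth factor for natural killer and memory T cells, was at 14.9, 19.4 and 16.7 CPM with IFNg and 60.3, 74.9 and 30.2 with IFNa (-1.71 ± 0.434), a call that ended on leaving out any IFNg library or IFNa replicate 1 or 2 (adjusted p from 0.077 to 0.107).

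Of 20 cytokine receptor chains, 7 were higher with IFNg (4 without IFNa replicate 1) and 3 with IFNa (0 without IFNg replicate 2). Without the replicate block 4 were higher with IFNg and 0 with IFNa. Il4ra, the IL-4 and IL-13 receptor chain, was at 159, 166 and 204 CPM with IFNg and 41.4, 43.5 and 72.4 with IFNa, with unstimulated libraries at 59.7 to 63.7 (1.79 ± 0.154, adjusted p = 1.62e-06, edgeR). Il12rb2, the signalling chain for IL-12, was at 12.9, 15.04 and 30.6 CPM against 3.50, 5.86 and 4.18 (1.97 ± 0.423). Tnfrsf1b, the TNF receptor TNFR2, was lower with IFNg, at 169, 168 and 243 CPM against 339, 401 and 542 with IFNa (-1.13 ± 0.291). Without replicate 3 of every neonatal group the adjusted p was 0.0788 for Il12rb2 and 0.165 for Tnfrsf1b, and Tnfrsf1b was also not called without the replicate block (0.063), without IFNg replicate 1 (0.0573) or 2 (0.117), or without IFNa replicate 1 (0.0775) or 3 (0.0903).

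Of 19 costimulatory, checkpoint and adhesion genes, 8 were higher with IFNg and 2 with IFNa, and their median difference was 0.78. The count towards IFNg was 5 without IFNa replicate 1 or 3 or IFNg replicate 2. Icam1, a ligand for leukocyte integrins, was at 765, 904 and 552 CPM with IFNg and 184, 231 and 97.6 with IFNa, from 41.3 to 43.4 (2.13 ± 0.261, adjusted p = 0.000194, edgeR). Cd274, which encodes the checkpoint ligand PD-L1, was at 602, 713 and 517 CPM against 220, 327 and 139 (1.42 ± 0.306). Cd38, an NAD-consuming ectoenzyme, was low in all libraries but separated fully, at 8.43, 7.01 and 12.9 CPM with IFNg and 1.78, 2.26 and 2.79 with IFNa (2.03 ± 0.189). Cd47 and Lgals9, whose products restrain phagocytes and T cells, were called higher with IFNa (-0.48 ± 0.094 and -0.45 ± 0.0955), with groups that overlapped, and neither call held without the replicate block (adjusted p = 0.488 and 0.515).

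Of 20 NF-kappaB subunits and feedback genes, 11 were higher with IFNg and 0 with IFNa, where 7.56% of all genes were higher with IFNg. The median difference was 0.45, and the count ranged from 7 to 11 over the alternatives and was lowest, at 7, without IFNg replicate 3. Tnfaip2, a TNF-inducible gene, was at 269, 312 and 203 CPM with IFNg and 39.7, 44.6 and 51.6 with IFNa, against 57.9 to 79.6 unstimulated (2.51 ± 0.135, adjusted p = 5.45e-09, edgeR). Nfkbie, the inhibitor IkB-epsilon, was at 67.5, 88.9 and 62.4 CPM against 23.2, 37.6 and 22.7 (1.40 ± 0.166), and Tnip3, an A20-binding inhibitor, differed by 1.51 ± 0.348. Tnip3 was not called without IFNa replicate 1 (adjusted p = 0.0565), IFNg replicate 3 (0.0501) or IFNa replicate 3 (0.0646). Tnf, which encodes an activator of NF-kappaB, was higher with IFNg under the block as given above, and its part in these calls was not tested.

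Enzymes of macrophage effector metabolism were mixed, with 3 of 16 genes higher with IFNg and 2 with IFNa. The first count was 1 without IFNa replicate 1, IFNg replicate 2 or IFNg replicate 3, and the second was 1 without replicate 1 of either group, IFNg replicate 2 or IFNa replicate 3. Acod1, which makes itaconate, rose from 0.664 to 3.32 CPM up to 604, 749 and 759 with IFNg and 210, 299 and 98.2 with IFNa (1.73 ± 0.465), and was not called with the 6 libraries alone (adjusted p = 0.153) or without IFNg replicate 1 (0.0919), 2 (0.125) or 3 (0.0731) or IFNa replicate 1 (0.0821). Gch1, which makes the tetrahydrobiopterin cofactor of nitric oxide synthase, was higher with IFNa, at 261, 307 and 217 CPM against 85.4, 108 and 94.4 (-1.46 ± 0.206, adjusted p = 0.000277, edgeR). Nos2, the inducible synthase, picked after its values were seen, rose by 8.24 with IFNg and 8.37 with IFNa and differed by -0.13 (interval -1.33 to 1.07). Wars, the tryptophanyl-tRNA synthetase, was higher with IFNg (0.93 ± 0.169). Of 7 NADPH oxidase genes 3 were higher with IFNg, Ncf4 (0.76 ± 0.0813), Ncf1 (0.49 ± 0.0973) and Rac2 (0.40 ± 0.0839), and 0 of these remained called without the replicate block.

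Of 24 cell death and inflammasome genes, 4 were higher with IFNg and 7 with IFNa (4 without IFNa replicate 1 or 2). Without the replicate block 1 was higher with IFNg and 3 with IFNa. The inflammasome adaptor Pycard, which encodes ASC, was higher with IFNg, at 75.5, 111 and 89.5 CPM against 58.1, 67.5 and 39.7 (0.74 ± 0.16). The flagellin receptors Naip5 and Naip6, close copies of each other, were higher with IFNa: Naip5 was at 17.35, 17.7 and 18.7 CPM with IFNg and 33.9, 39.3 and 40.0 with IFNa (-1.07 ± 0.131, adjusted p = 2.59e-05, edgeR), and Naip6 differed by -1.10 ± 0.186. Daxx, a death-domain-associated chromatin protein gene, was higher with IFNa (-1.38 ± 0.309), but not with the 6 libraries alone (adjusted p = 0.0586), nor without IFNa replicate 1 (0.0568) or 2 (0.0572) or IFNg replicate 2 (0.0545).

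Complement and Fc receptor genes were mostly on the IFNg side among calls, 9 of 24 against 1. The counts were 4 and 0 without the replicate block. Leaving out 1 IFNg or IFNa library gave 6 to 8 on the IFNg side. Fcgr3, an activating receptor for IgG, was at 866, 1040 and 812 CPM with IFNg and 339, 391 and 306 with IFNa, within the unstimulated range of 269 to 375 but for 1 library (1.39 ± 0.19, adjusted p = 0.000231, edgeR). Fcgr2b, the inhibitory receptor, was higher with IFNg in each replicate, at 52.5, 67.8 and 28.6 CPM against 19.9, 22.6 and 11.01 (1.46 ± 0.192). The complement component C3 was at 39.0, 38.4 and 33.7 CPM against 16.2, 21.2 and 12.6 (1.15 ± 0.252), with an adjusted p of 0.109 without replicate 3 of every neonatal group. C3ar1, the C3a receptor, was higher with IFNa (-0.53 ± 0.0958), but not without the replicate block (adjusted p = 0.343).

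Of 25 homeostatic genes 5 were higher with IFNg and 4 with IFNa, of 24 disease-associated genes 4 and 3, and of 24 phagocytic and scavenger receptors 3 and 3. These counts moved when single libraries were left out. Without IFNg replicate 2 or IFNa replicate 3 the homeostatic genes higher with IFNa were 0, and 2 without IFNa replicate 1 or 2 or IFNg replicate 3, while those higher with IFNg were 2 without IFNg replicate 1 or IFNa replicate 2 and 3 without IFNa replicate 1 or IFNg replicate 3. The disease-associated genes higher with IFNg were 1 without replicate 1 of either group, IFNg replicate 2 or IFNa replicate 3 and 2 without IFNa replicate 2, and those higher with IFNa were 0 without IFNg replicate 2 and 1 without IFNa replicate 2. The phagocytic receptors higher with IFNa were 1 without IFNa replicate 1 or 2 or IFNg replicate 2. The fractalkine receptor Cx3cr1 fell with both, from 811, 959 and 977 CPM to 145, 125 and 131 with IFNg and 235, 258 and 402 with IFNa (-1.14 ± 0.31, adjusted p = 0.0309, edgeR). Its call between the agents ended without a filter on low counts (adjusted p = 0.0513), without IFNa replicate 1 (0.0664) or 3 (0.132), without IFNg replicate 2 (0.144) or 3 (0.0931), and without replicate 3 of every neonatal group (-0.84, 0.242). Gpr84, a receptor for medium-chain fatty acids, was higher with IFNg, at 12.7, 13.8 and 9.96 CPM against 5.095, 6.92 and 4.11 (1.18 ± 0.249). Fabp5, a lipid carrier of activated microglia, was higher with IFNg (0.66 ± 0.0962), though not in a fit of all 24 libraries (adjusted p = 0.0672). Cd300lf, a lipid-binding inhibitory receptor, was higher with IFNa (-0.72 ± 0.161).

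Markers of other cell types were read beside these results. Of 10 border macrophage markers tested 3 were higher with IFNg, among them the mannose receptor Mrc1, at 199, 192 and 177 CPM with IFNg and 96.7, 108 and 98.7 with IFNa (0.90 ± 0.0905). The summed border macrophage markers were at 1502 to 1627 CPM with IFNg and 1246 to 1416 with IFNa, and their part in these results was not tested. The summed endothelial markers were at 175 to 217 CPM with IFNa and 64.8 to 102 with IFNg, through the growth factor receptors Flt1 (mean 70.2 against 36.4 CPM) and Kdr (107 against 21.2), whereas the defining markers Pecam1 (4.30 against 5.44) and Cldn5 (0.197 against 0.448) were near the bottom in both, and the part of endothelial cells in these results was not tested. These marker genes were singled out after their values were seen. Of 8 endothelial markers tested 1 was called higher with IFNg and 2 with IFNa, with a list median of -0.11. The summed oligodendrocyte markers, at 288 to 363 CPM with IFNa and 166 to 248 with IFNg, included Cnp at a mean of 267 against 130 CPM and Mbp at 47.7 against 49.5, and 4 or 5 of 10 markers were at 0 in each library. Their part was not tested either. Mural cell and fibroblast markers summed to 259, 85.8 and 177 CPM with IFNg and 366, 502 and 205 with IFNa, higher in each IFNa library than in the IFNg library of its number, with a list median of -1.26. By edgeR 0 of the 9 tested were called, and 1, Tagln, had an unadjusted p under 0.05. Oligodendrocyte precursor markers summed to 43.5, 11.95 and 42.9 CPM with IFNg and 64.2, 27.4 and 68.7 with IFNa, and 1 of 6, Olig1, was called (higher with IFNa). Dendritic cell markers summed to 29.5, 33.4 and 19.1 CPM with IFNg and 10.96, 13.8 and 11.9 with IFNa, without overlap, and 1 of 4 tested, the transcription factor gene Batf3, was called (higher with IFNg). Astrocyte markers summed to 66.5 to 375 CPM with IFNg and 69.7 to 382 with IFNa. The part of these cell types in the results was not tested.

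Of 30 immediate early genes 7 were higher with IFNg (4 without replicate 3 of either group) and 5 with IFNa. Maff, a small basic leucine zipper factor, was at 41.0, 37.6 and 19.6 CPM with IFNg and 8.77, 12.1 and 3.52 with IFNa (2.05 ± 0.238). Dusp6, a phosphatase of ERK, was lower with IFNg (-0.84 ± 0.152, adjusted p = 0.000924, edgeR). Of 30 cell cycle genes 2 were higher with IFNa, which is near the 6.51% of all genes, and 0 with IFNg. The 2 became 1 without replicate 2 of either group, and the helicase subunit Mcm6 was at 88.7, 109 and 104 CPM with IFNg and 224, 248 and 275 with IFNa (-1.31 ± 0.145). Of 19 glycolysis genes 7 were higher with IFNg and 2 with IFNa: hexokinase 2 (Hk2) was at 287, 284 and 317 CPM with IFNg and 94.9, 85.4 and 125 with IFNa (1.56 ± 0.133, adjusted p = 7.36e-07), whereas Pfkfb3, which makes the activator of phosphofructokinase, was higher with IFNa (-0.91 ± 0.157). Of 20 sterol synthesis genes 6 were higher with IFNg and 0 with IFNa, and the largest difference was that of Pmvk, phosphomevalonate kinase, at 81.3, 95.4 and 64.8 CPM against 35.2, 35.9 and 28.6 (1.27 ± 0.139). Without the replicate block 3 glycolysis and 1 sterol synthesis genes were higher with IFNg. Leaving out 1 library also cut the 6 sterol synthesis genes, to 1 without IFNg replicate 1 or IFNa replicate 2, 2 without IFNa replicate 1 or IFNg replicate 3, and 3 without IFNg replicate 2. It was 2 in the fit of all 24 libraries.

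**Figure D4:**
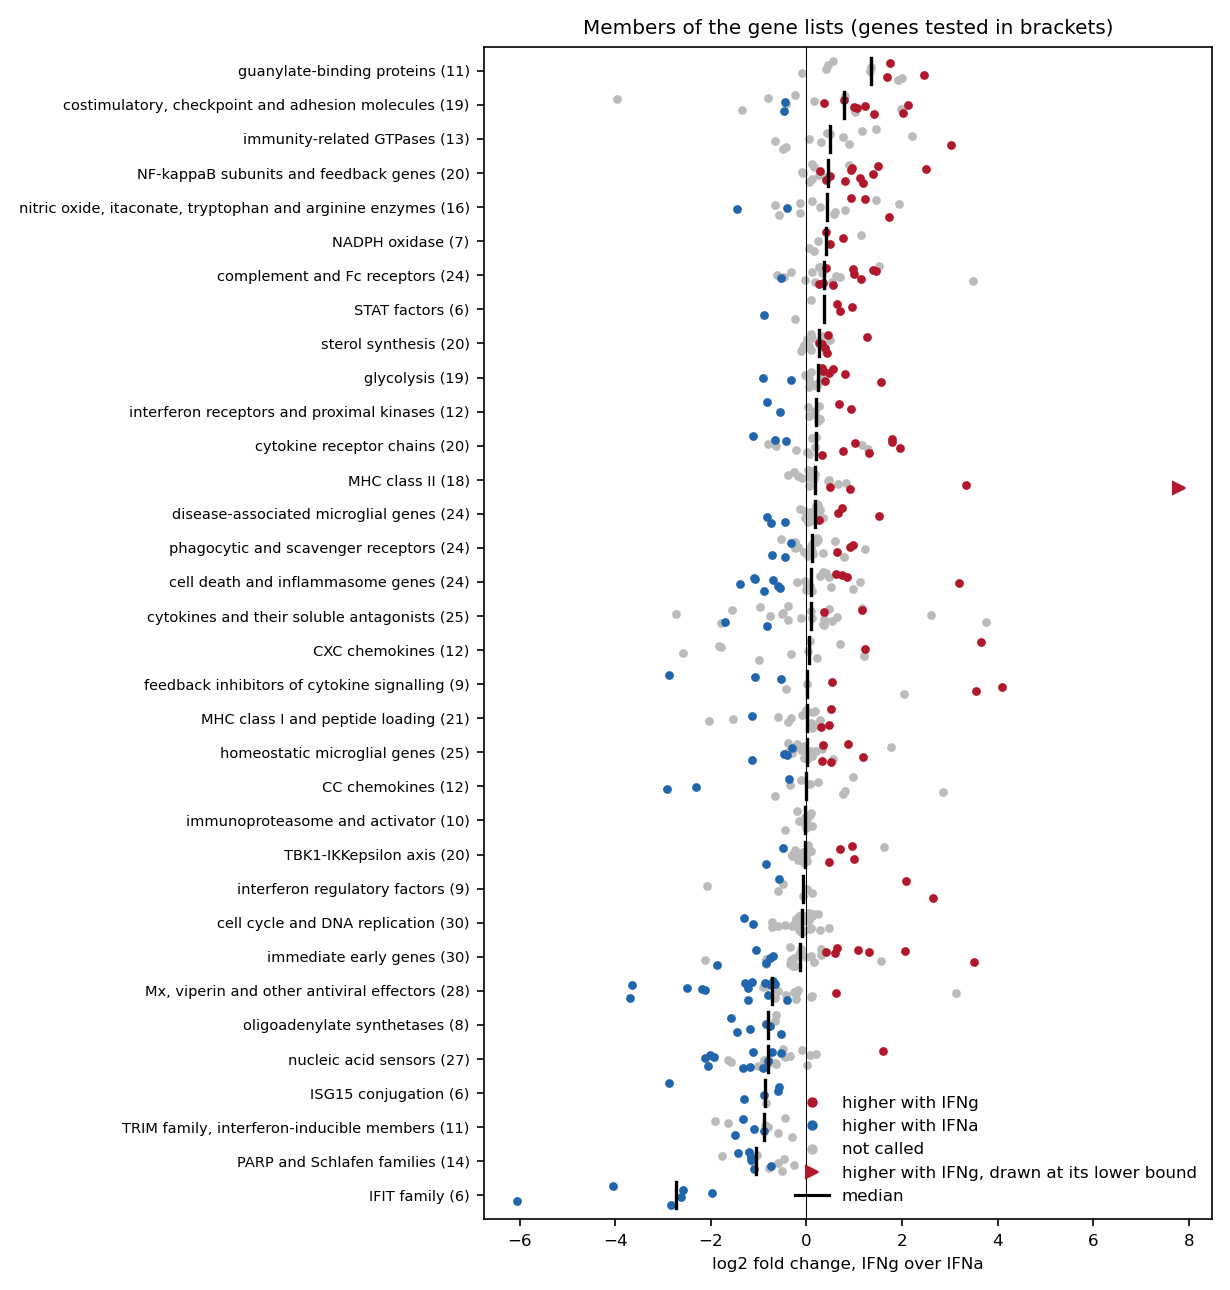
Log2 fold change of IFNg over IFNa for each tested member of 34 gene lists, ordered by the list median (black bar); red and blue points are called higher with IFNg or IFNa, grey points are not called, and the triangle is Ciita at its lower bound. The IFIT, PARP and Schlafen, TRIM, ISG15, sensor and oligoadenylate synthetase lists have medians from -2.74 to -0.81, and the guanylate-binding proteins have the highest median, 1.35.

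Genes that moved in opposite directions against unstimulated cells were a small group, 37 raised by IFNg and lowered by IFNa and 17 the reverse. By the size of the difference, the first group was led by Egr2, an early growth response factor, which was at 7.29, 6.46 and 6.24 CPM in unstimulated libraries, 21.7, 31.2 and 7.37 with IFNg and 1.30, 2.00 and 1.61 with IFNa (3.50 ± 0.546, adjusted p = 0.00058, edgeR). IFNg replicate 3 was only just above the unstimulated libraries for Egr2. Tnfaip2, Mrc1 and Pros1 belonged to this group as well; Pros1, a bridging ligand of the TAM receptors, was at 295, 372 and 241 CPM with IFNg and 148, 172 and 140 with IFNa, against 202 to 227 (0.98 ± 0.122). In the reverse group were Ccl3 and Dusp1, a phosphatase of stress kinases, which was at 25.6, 22.4 and 33.4 CPM with IFNg, 47.9, 62.7 and 57.5 unstimulated and 85.7, 102 and 113 with IFNa (-1.88 ± 0.132, adjusted p = 8.67e-08). For Dusp1 the 3 groups did not overlap. The control libraries enter both directions as the reference. They are on neither side of the difference between IFNg and IFNa. They still entered its fit, and with it the scaling, standard error and adjusted p.

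Promoters were examined for the 2 elements named above, as RefSeq windows on GRCm38.p6 from 250 bases before to 50 bases after a start site. Of the tested genes 10782 matched a RefSeq promoter, with 13819 windows in all. The GAS motif was searched as TTCNNNGAA, which reads the same on both strands, and the ISRE core as GAAANNGAAA on both strands, and matches of one motif may overlap those of the other. A GAS match was present in 6.67% of all windows, in 11.8% of those of genes at least 2-fold higher with IFNg (29 of 246) and in 7.36% of those at least 2-fold higher with IFNa. An ISRE core match was present in 3.30% of all windows, in 4.47% of those at least 2-fold higher with IFNg and in 12.7% of those at least 2-fold higher with IFNa (38 of 299). It was 15.6% among the 225 of these windows whose genes also rose with IFNa over unstimulated cells, and GAS was at 11.8% among the 195 windows of the matching IFNg class. Windows of genes that rose with both and were not called between them held GAS in 8.76% and the ISRE core in 7.85%. These shares are descriptions, and a match is not evidence of a bound site.

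**Figure D5:**
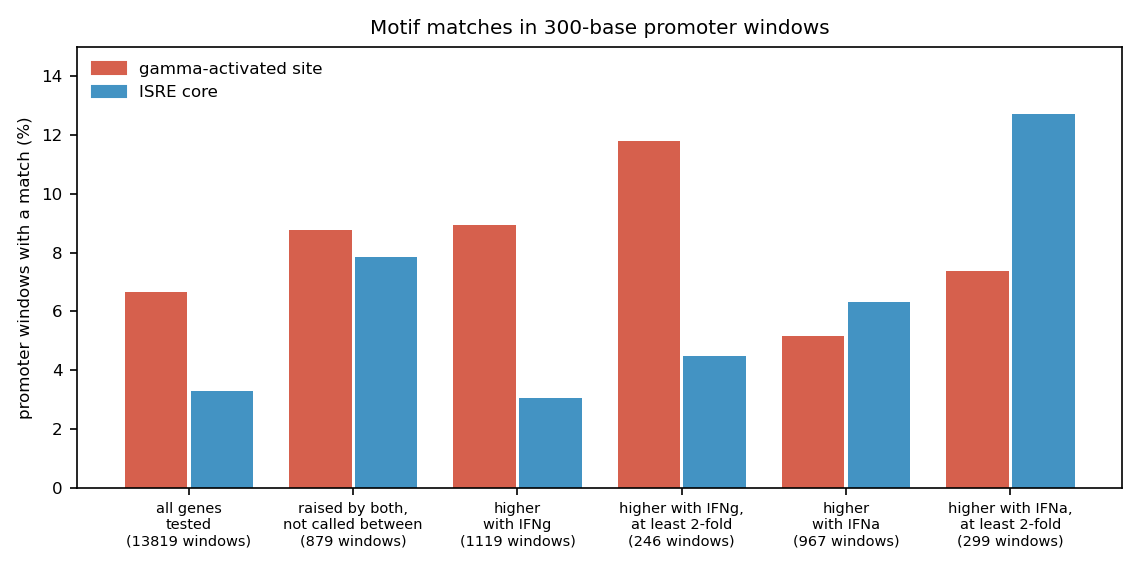
Share of promoter windows that hold a match to the gamma-activated site (red) or the ISRE core (blue), in percent, by class of gene, with the number of windows in brackets. Among the classes plotted, the blue bar is highest for genes at least 2-fold higher with IFNa (12.7%) and the red bar for genes at least 2-fold higher with IFNg (11.8%), against 3.30% and 6.67% of all windows.

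The following windows are shown as examples of each motif in genes from either side, chosen with their matches known, together with the kinase of the study's title, with matches in capitals (GAS for Socs3 and Irf1, ISRE core for Ifit3b and Ifit1bl1, no match for Ikbke). They lie at chr11:117969317-117969616, chr11:53769764-53770063, chr19:34607707-34608006, chr19:34599378-34599677 and chr1:131279514-131279813 in that order, on the minus, plus, plus, minus and minus strand, and each is written from 5′ to 3′ along its gene.
Socs3: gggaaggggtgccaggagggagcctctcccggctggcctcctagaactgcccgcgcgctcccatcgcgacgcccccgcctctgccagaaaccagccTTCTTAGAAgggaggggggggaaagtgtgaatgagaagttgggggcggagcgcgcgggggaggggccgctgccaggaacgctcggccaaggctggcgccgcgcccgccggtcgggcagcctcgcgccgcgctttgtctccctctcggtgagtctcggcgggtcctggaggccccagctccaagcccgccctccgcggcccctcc
Irf1: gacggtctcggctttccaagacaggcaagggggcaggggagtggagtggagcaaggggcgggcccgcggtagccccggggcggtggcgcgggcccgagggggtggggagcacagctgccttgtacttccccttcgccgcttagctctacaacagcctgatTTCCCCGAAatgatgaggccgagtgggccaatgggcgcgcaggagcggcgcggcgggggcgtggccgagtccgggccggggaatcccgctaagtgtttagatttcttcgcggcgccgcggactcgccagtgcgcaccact
Ifit3b: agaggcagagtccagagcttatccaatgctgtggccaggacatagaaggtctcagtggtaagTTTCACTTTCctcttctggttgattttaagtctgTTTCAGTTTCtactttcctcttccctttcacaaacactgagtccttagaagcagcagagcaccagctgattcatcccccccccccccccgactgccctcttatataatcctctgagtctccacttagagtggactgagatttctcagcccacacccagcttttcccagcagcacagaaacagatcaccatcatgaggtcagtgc
Ifit1bl1: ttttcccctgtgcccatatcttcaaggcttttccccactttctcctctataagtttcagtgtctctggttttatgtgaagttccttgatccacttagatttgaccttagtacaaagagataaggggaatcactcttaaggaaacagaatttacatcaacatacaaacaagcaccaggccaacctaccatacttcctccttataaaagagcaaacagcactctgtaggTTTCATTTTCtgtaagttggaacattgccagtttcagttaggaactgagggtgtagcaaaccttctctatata
Ikbke: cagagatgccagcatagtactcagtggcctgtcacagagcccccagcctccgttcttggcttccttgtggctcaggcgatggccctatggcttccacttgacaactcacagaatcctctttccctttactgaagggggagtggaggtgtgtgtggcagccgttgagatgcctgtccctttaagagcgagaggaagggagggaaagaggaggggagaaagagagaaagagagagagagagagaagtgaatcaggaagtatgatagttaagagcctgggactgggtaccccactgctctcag
The GAS match began 154 bases before the start site in Socs3 and 90 bases before it in Irf1, both genes that were higher with IFNg. Ifit3b held 2 ISRE core matches, 188 and 154 bases before its start, and this Ifit1bl1 window held 1, 23 bases before. The windows of Cdc42ep2, Cxcl9, Cmpk2 and Irf7 held neither motif, which says only that these letters are not in those windows. Irf1 and Ifit1bl1 each have a further RefSeq window: that of Irf1 held neither motif, and that of Ifit1bl1 held 1 ISRE core match, 104 bases before the start. Both motifs occurred on both sides: of 56 named genes with a window that were higher with IFNg 9 held a GAS and 7 an ISRE core match, Socs1 (2 cores) and Slamf8 (1) among the latter, and of 51 that were higher with IFNa 2 held a GAS and 16 an ISRE core match.

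Adult microglia of MRL/lpr mice were set beside those of MRL/MpJ mice, both at 16 weeks, to see how genes that separate the interferons stood in the lupus-prone strain. Of the 12781 genes tested in both fits, 23.3% were higher and 22.9% lower in MRL/lpr. Of the genes at least 2-fold higher with IFNg, 23.5% were higher in adult MRL/lpr microglia (54 of 230), and of those at least 2-fold higher with IFNa, 24.9% (68 of 273) of that class, where 23.3% of all genes were. The shares lower in MRL/lpr were 18.26% (42 of 230) and 16.5% (45 of 273), where 22.9% of all genes were. Of all 1084 genes called higher with IFNg and tested in adults, 22.5% were higher and 34.1% lower in MRL/lpr (370 genes), and of the 912 called higher with IFNa 22.7% and 25.9%. The MRL/lpr libraries held reads for 19913 to 20130 genes and the MRL/MpJ libraries for 16363 to 16836. The part of cell content in the adult differences was not tested. Single genes went both ways, and those given here are examples only. Cxcl9 was higher in MRL/lpr, at 7.45, 14.5 and 5.29 CPM against 0.296, 0 and 0.547, as was Ccl3, at 82.7, 85.1 and 83.9 against 9.03, 7.58 and 6.49. Mrc1 and Pros1, both higher with IFNg than with IFNa, were called lower in MRL/lpr, by log2 differences of -1.18 and -0.64. Ikbke was at 7.68, 3.99 and 10.3 CPM in MRL/lpr and 0.074, 1.01 and 0.342 in MRL/MpJ (adjusted p = 0.00036, edgeR).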

How the data were processed

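RNA sequencing counts were taken as deposited: whole-number read counts per gene, not normalized, for 24 libraries. Per the submitters' processing notes, reads were handled with cutadapt 2.1 and STAR 2.7.1a on mm10; which counter, annotation and strand setting were used is not given in the sources used here. Per the labels, total RNA was extracted with a column kit and libraries were directional.

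Of 55434 genes, 14626 passed edgeR's expression filter. The 18 neonatal libraries were scaled by TMM and fitted together with edgeR 4.0.16 (R 4.3.3, limma 3.58.1), by the quasi-likelihood test with group and replicate number as terms, which left 10 residual degrees of freedom, and p-values were adjusted by Benjamini-Hochberg over all genes tested. The biological coefficient of variation was 0.195. The 6 adult libraries were fitted on their own. Total counts were 10084927 to 19316994 per neonatal library and 12790586 to 17207574 per adult library, and intervals on read ratios cover counting error only. A gene with 0 reads in a group was given as a bound against 3 counts over the group.

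Same-numbered neonatal libraries deviated together: all 45 pairs had a correlation of their deviations above 0.1 (0.184 to 0.687), and the 3 pairs of IFNg with IFNa lay between 0.376 and 0.634. Pairs of different number reached 0.223 at most, so the same-number and different-number ranges overlapped at the low end. The replicate numbers were taken to pair the samples. No 2 libraries of the IFNg or the IFNa group agreed within sampling noise.

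The comparison, its members and the 34 function and 15 marker lists were chosen with earlier results of these data known. The rule for named genes was Ikbke, all members of the receptor, STAT, IRF and feedback lists, up to 3 called genes each way with the largest change in each other list, and the 8 genes each way with the largest change over all called genes, restricted to a mean level of 2 or more (log2 CPM) and to groups that do not overlap; the text describes those that the results turn on. Alternatives were no replicate block, DESeq2 1.42.0, limma-voom, other scalings and filters, fits of fewer or more groups, and leaving out each library. The fits without replicate 3 of every neonatal group and without the mixture library numbered 2 were added after seeing the data. On simulated counts for IFNg against IFNa (14626 genes, 200 of them changed), the procedure recovered 53% of 2-fold and 94% of 4-fold changes, and 1.34% of its calls were false. Every simulated gene had the same biological coefficient of variation, and its replicate effect was equal in all groups. The real counts need not behave so, and these rates are not error rates of the calls above. Tables and plots used Python 3.11.15, pandas 2.3.3 and matplotlib 3.10.9. Some genes of the lists are not reported here.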

Additional observations from a re-analysis of the deposited data

How the results depend on the processing

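Without the replicate block, 756 genes were called between IFNg and IFNa in place of 2058, 411 higher with IFNg and 345 higher with IFNa, and all 756 are among the 2058. IFNg against unstimulated cells fell from 3468 to 1886 calls without the replicate block, and IFNa against unstimulated cells from 3712 to 2118. Leaving out 1 IFNg or IFNa library gave 1223 to 1821 calls in all, 645 to 893 higher with IFNg and 578 to 928 higher with IFNa. The lowest of these counts came without IFNg replicate 2, and 1309 calls came without IFNa replicate 1. The other scalings, filters and tools gave between 2030 and 2463 calls, and the fit of the 6 libraries alone gave 2464. Of 134 named genes called, 55 were called under all 17 alternatives, 59 lost the call without the replicate block, 42 without at least 1 IFNg or IFNa library, and 0 changed sign. The adult comparison had 6310 calls, and 6921 with a replicate block. Ikbke kept its call under each alternative run. With 3 libraries a group and 14487325 to 16287192 reads a library, genes not called may still differ. The simulation recovered 53% of 2-fold changes, but the real counts need not behave like the simulated ones.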

Other observations

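Neonatal microglia given IFNg, IL6, IFNa and TNFa together form a further group of 3 libraries that is on neither side of the comparisons above. These libraries were scaled and fitted together with the other neonatal libraries, so they entered the fit behind the neonatal calls. The library of this group numbered 2 stood apart for several genes that differed between IFNg and IFNa. The genes given here were picked after their values were seen. Irf8 was at 2307, 651 and 2690 CPM in mixture libraries 1, 2 and 3. Irf1 was at 1281, 418 and 1356 CPM, Socs1 at 515, 92.2 and 394, and Slamf8 at 314, 126 and 342. Cxcl9 was at 2376, 657 and 1977 CPM. In these 5 genes library 2 was the lowest of the group. Other genes that were higher with IFNg did not follow: Socs3 was at 77.9, 95.3 and 128 CPM and Cdc42ep2 at 31.6, 31.4 and 64.7.

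Several genes that were higher with IFNa were high in the same library. Rsad2 was at 10778, 11961 and 9294 CPM, Cmpk2 at 9819, 11082 and 7290, and Usp18 at 1136, 1275 and 1094. Ifit1bl1 was at 179, 409 and 241 CPM and Ccl3 at 495, 896 and 338. Library 2 was the highest of the group in these 5 genes. Ikbke was at 229, 304 and 301 CPM in the mixture, above its 41.7 to 44.4 CPM with IFNg alone and 16.6 to 28.1 with IFNa alone. No test was made on these values. Without mixture library 2 in the fit, 2093 genes were called between IFNg and IFNa.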
